A study of Homo sapiens with 6 samples.

Results

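The 60 genes described here encode the machinery of mitosis. They cover the CDK1 switch that starts it, the Polo, Aurora and NEK kinases, the spindle checkpoint and partners of the anaphase-promoting complex. Also covered are kinesin motors, kinetochore and spindle proteins, and the condensins. The genes were taken from a list of gene symbols by their names, by a rule that used no measured value. That list, however, was drawn up with earlier results of these data known. All 60 were found among the 63677 identifiers of the count table and were expressed well enough to be tested. In T24 bladder cancer cells with RBM3 silenced, 53 of the 60 had a lower mean than in control cells, but by little. By the thresholds of the study, edgeR called 0 of the 60 and 0.0% of all genes tested, and it did not call RBM3 itself. DESeq2 called 0 of the 60 and 1.22% of all genes it tested. The largest differences lay between single libraries rather than between the groups. One siRBM3 library had the lowest level of 59 of the 60 genes, whereas one control and one other siRBM3 library were both high. WEE1, the kinase that holds CDK1 inactive, was the exception, with a higher level in every siRBM3 library than in any control library. The same held for 9.99% of all genes tested.

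T24 is a line from a high-grade invasive bladder carcinoma, and RBM3 is an RNA-binding protein. Cells were transfected for 4.5 h in serum-free medium with 25 nM of a pool of siRNAs against RBM3, or in the same way with a non-targeting siRNA, recovered overnight in full medium, and were then harvested. Polyadenylated RNA of 3 control samples (replicates 1, 3 and 5) and 3 siRBM3 samples (replicates 3, 4 and 5) was sequenced. Nothing in the sources used here says whether the samples of a group were separate cultures, so p-values measure the spread between these samples. Levels are given as CPM, the counts of a gene relative to the TMM-scaled total of its library, in the order control replicates 1, 3 and 5, then siRBM3 replicates 3, 4 and 5. No synchronisation of the cells is described, and in such bulk samples fewer cells in mitosis and less RNA per cell cannot be told apart.

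As background, CDK1 is switched on by cyclins A and B, held inactive through phosphorylation by WEE1 and PKMYT1, and released by the CDC25 phosphatases. The spindle checkpoint then keeps CDC20 from the anaphase-promoting complex until every kinetochore is bound by microtubules, after which securin and cyclin B are degraded, separase opens the cohesin rings, and the cell divides. The genes of this machinery are transcribed mostly in G2 and mitosis and kept silent earlier in the cycle. This periodic control acts through a short promoter element, the cell cycle genes homology region (CHR, TTTGAA or TTCGAA), bound by the MuvB complex together with MYBL2 and FOXM1 or with the DREAM repressors, often near CCAAT boxes bound by NF-Y.

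These promoter elements are a feature that the list did not use, and 10 of them are shown, 1 for each role group that has one near a start site, because the CHR letters were more frequent in these promoters than among all genes. Each run is 30 bases of the gene strand, 5′ to 3′, from the RefSeq promoter table (GRCh38.p14), placed by exact match on GRCh37, with 1 copy of TTTGAA in capitals, the first that starts 40 to 10 bases before the start. Further copies, on either strand, are in lower case, as in HMMR and ANLN. All runs lie on the plus strand.
CDK1: tagcgcggtgagTTTGAAactgctcgcact
PLK1: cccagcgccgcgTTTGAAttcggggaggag
BUB1B: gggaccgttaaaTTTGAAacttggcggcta
ESPL1: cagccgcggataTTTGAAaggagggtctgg
KIF4A: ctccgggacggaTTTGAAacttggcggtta
CENPA: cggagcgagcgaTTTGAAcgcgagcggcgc
INCENP: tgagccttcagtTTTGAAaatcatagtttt
HMMR: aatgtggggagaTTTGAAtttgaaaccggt
ANLN: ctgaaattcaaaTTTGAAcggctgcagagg
NCAPG: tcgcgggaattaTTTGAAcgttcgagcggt

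The run of CDK1, the mitotic cyclin-dependent kinase, lies at chr10:62538211-62538240, with the element starting 13 bases before the RefSeq start. That of the Polo kinase PLK1 lies at chr16:23690169-23690198 (29 before), that of the checkpoint kinase BUB1B at chr15:40453235-40453264 (23 before) and that of the separase gene ESPL1 at chr12:53662040-53662069 (31 before). The run of the chromokinesin KIF4A lies at chrX:69509908-69509937 (34 before), that of the centromeric histone CENPA at chr2:27008894-27008923 (18 before) and that of INCENP, the scaffold of the chromosomal passenger complex, at chr11:61891461-61891490 (10 before). The run of the spindle protein HMMR lies at chr5:162887598-162887627 (28 before), that of the actin-binding cytokinesis protein ANLN at chr7:36429439-36429468 (20 before) and that of the condensin subunit NCAPG at chr4:17812555-17812584 (35 before). In the GENCODE annotation of GRCh37, the runs of ESPL1, KIF4A and NCAPG lie upstream of the gene, that of INCENP crosses its first base, and the others lie inside a span whose earliest transcript starts further upstream.

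Of the 60 genes, 51 had an entry in the promoter table, which covers 250 bases before to 50 bases after each start. WEE1, AURKA, BUB3, TTK, UBE2C, FOXM1, KNL1, BIRC5 and TPX2 had none. The CHR letters, searched on both strands, were found for 38 of the 51 genes (74.5%), compared with 19.5% of the 27305 genes in the table. A CCAAT box was found for 39 of the 51 (76.5%, compared with 39.7% of all genes), and both elements stood in the same promoter for 29 (56.9%, compared with 7.85%). The letters TTTGAA on the gene strand, starting 40 to 10 bases before the start, were found for 16 of the 51 (31.4%) and for 1.14% of all genes. E2F-like sites (TTCCCGC with its variant TTCGCGC, and TTGCCGC with its variant TTGGCGC, both strands), the element of genes transcribed at the start of S phase, were found for 18 of the 51 (35.3%, compared with 15.3%). Of 94 other genes of the mitotic machinery in the table, 46.8% had the CHR letters, 57.4% a CCAAT box and 26.6% both in the same promoter. E2F-like sites were found for 44.7% of them, more often than for the 51 genes. A match is a description of the letters, not a bound site. The 38 genes with the CHR letters and the 13 without them differed little in this experiment, with a median log2 fold change of -0.16 and -0.17 and a median range over the 6 libraries of 1.43 and 1.45 on the log2 scale.

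**Figure D1:**
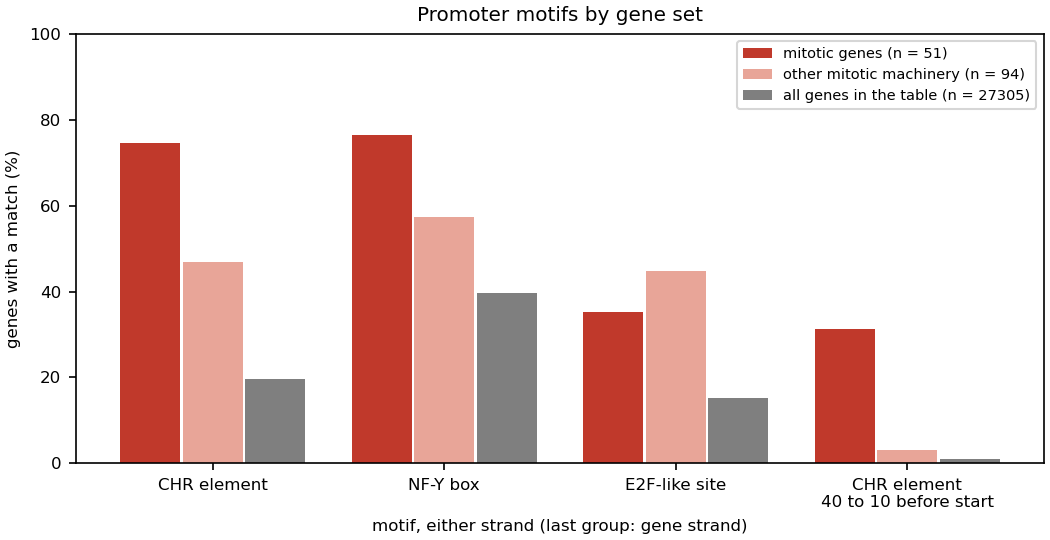
Share of genes (percent, y axis) with each promoter motif (x axis) among the 51 mitotic genes in the promoter table, 94 other genes of the mitotic machinery and all 27305 genes of the table. The CHR element near the start was found for 31.4% of the mitotic genes, 3.19% of the other mitotic machinery and 1.14% of all genes.

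RBM3 itself stood at 225, 367 and 300.4 CPM in the control libraries and at 54.1, 90.0 and 58.3 CPM in the siRBM3 libraries, so the labels and the target agreed in all 6. Its log2 fold change was -2.14 (SE 0.24), with an adjusted p of 0.0822 in the quasi-likelihood test of edgeR (Benjamini-Hochberg). At the threshold of 0.01 used here, RBM3 was therefore not called by that test. Library totals ranged from 23603992 to 45098612 counts. The deepest library, siRBM3 replicate 3, also had the largest share of counts from the mitochondrial genome (9.40%, compared with 1.63% to 4.15% in the other 5). Of the urothelial and epithelial markers, KRT7 (2351 to 3236 CPM), KRT8, KRT18, KRT19 and PPARG were abundant, GATA3 (9.30 to 14.2 CPM) and EPCAM (4.89 to 6.87 CPM) were low, and UPK2 and KRT13 were at or below 1.86 CPM. KRT5, KRT20, UPK1A, UPK1B, UPK3A and CDH1 were below 1 CPM in every library. The mesenchymal markers VIM, CDH2 and FN1 were abundant. Of the markers of other cell types, PTPRC, CD3E, CD68, DCN and VWF were below 1 CPM, COL1A2 was at or below 2.45 CPM, COL1A1 stood at 7.30 to 9.51 CPM and CDH5 at 27.2 to 40.4 CPM.

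The comparison of siRBM3 with control cells asks whether silencing RBM3 alters the transcripts of mitosis. Their median log2 fold change was -0.18, compared with -0.01 over all 15099 genes tested, and 53 had a lower and 7 a higher mean in siRBM3 cells (51.5% of all genes tested were lower). With thresholds of 1.5 for the fold change and 0.01 for the adjusted p, 0 of the 60 were called by edgeR (0.0% of all genes tested), and 0 by DESeq2 (1.22% of all genes it tested) or limma-voom (0.0%). At an unadjusted p below 0.05, 1 was higher and 0 were lower, compared with 6.56% and 6.58% of all genes (13.1% in either direction). The groups of libraries did not overlap for 1 gene that was higher and for 0 that were lower, compared with 9.99% and 9.93% of all genes (19.9% in either direction). Most of the lower means were thus within the spread between the libraries. For 57 of the 60 genes the difference between the group means was smaller than the pooled SD on the log2 scale. The exceptions were WEE1, which was higher, and FOXM1 (-0.47, pooled SD 0.37) and MYBL2 (-0.38, pooled SD 0.32), which were lower.

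The spread itself was wide. The median range of a mitotic gene over the 6 libraries was 1.44 on the log2 scale, compared with 0.55 over all genes tested, and the median SE of the log2 fold change was 0.34, compared with 0.17. AURKA had the widest range, with a highest level 4.42 times the lowest, and BUB3 the narrowest, at 1.38 times. Added together, the 60 genes took 6015, 5736 and 8654 CPM in the control libraries and 3565, 6502 and 8164 CPM in the siRBM3 libraries. The libraries therefore did not sort by group, with siRBM3 replicate 3 below and control replicate 5 and siRBM3 replicate 5 above the other 3.

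**Figure D2:**
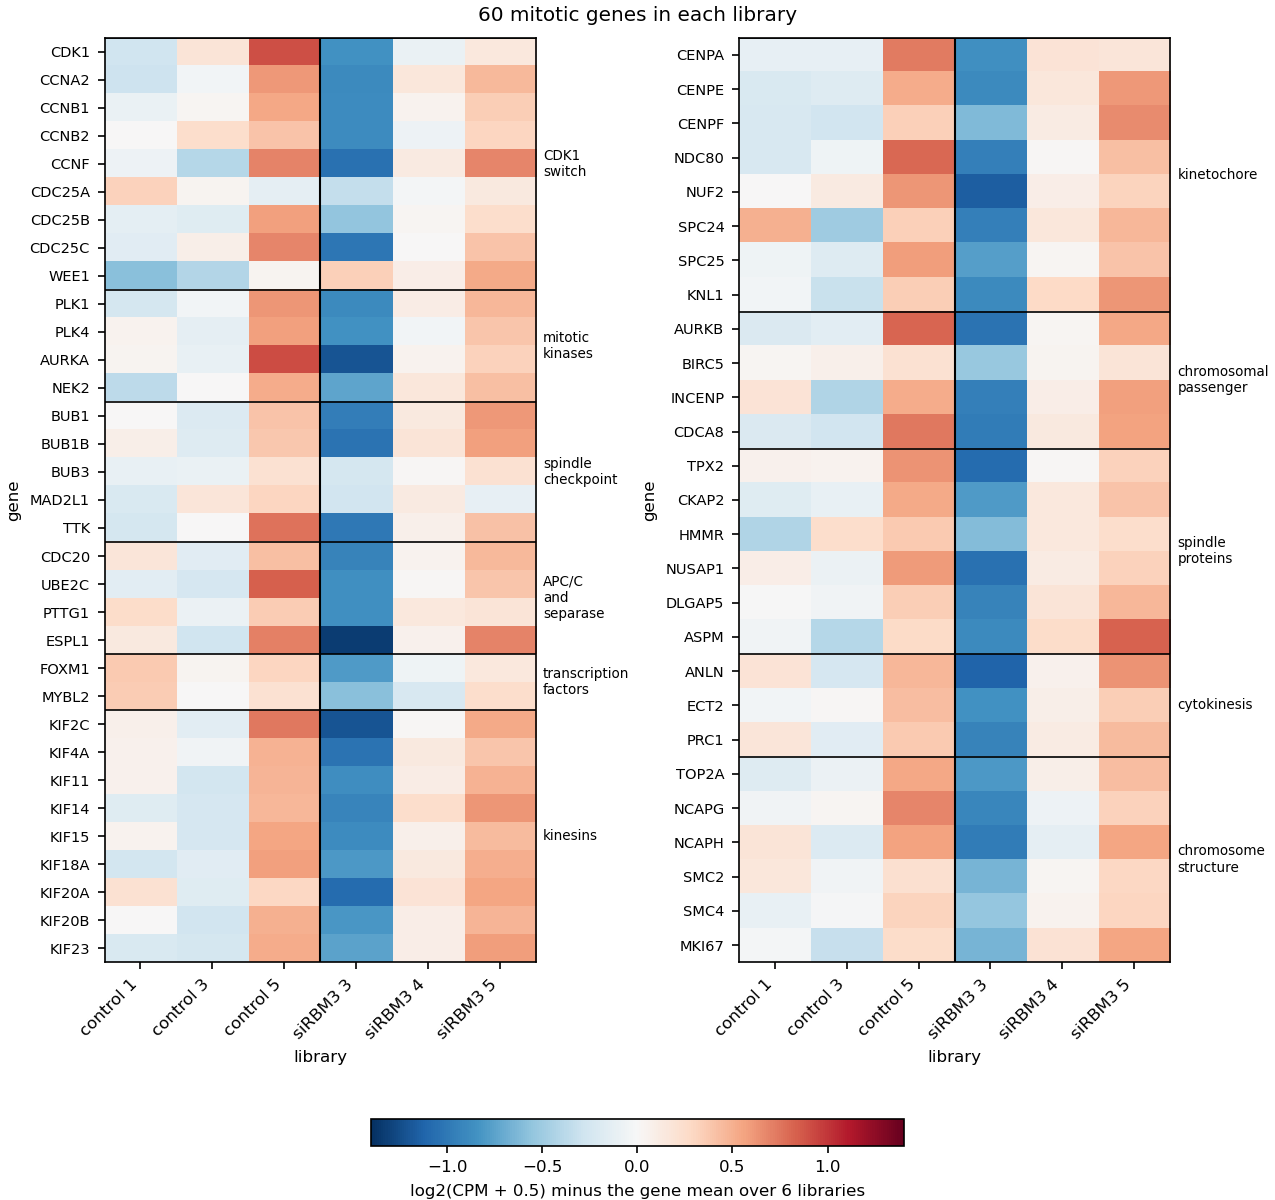
Level of each of the 60 mitotic genes (rows, in role groups) in each of the 6 libraries (columns), as log2(CPM + 0.5) minus the mean of the gene over the libraries. The column of siRBM3 replicate 3 holds the lowest value of 59 genes and WEE1 alone is above its mean there, while control replicate 5 and siRBM3 replicate 5 are above the mean for most genes (exceptions are CDC25A in the former and MAD2L1 in the latter).

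The library pattern was shared by nearly every gene. Levels were lowest in siRBM3 replicate 3 for 59 of the 60 genes, whereas 19.4% of all genes tested had their lowest level there. They were highest in control replicate 5 for 38 genes (15.9% of all genes tested), in siRBM3 replicate 5 for 18 (14.4%) and in control replicate 1 for 4, namely CDC25A, FOXM1, MYBL2 and SPC24. Compared with the 3 control libraries together, siRBM3 replicate 3 was below all of them for 59 genes, siRBM3 replicate 4 for 5 and siRBM3 replicate 5 for 0, and siRBM3 replicate 5 was above all of them for 18. The siRBM3 libraries were thus not alike, since replicate 3 lay below the controls and the other 2 lay mostly among them. The mean deviation of the 60 genes from their own means, on the log2(CPM + 0.5) scale, was -0.03, -0.12 and 0.49 in the control libraries and -0.84, 0.08 and 0.42 in the siRBM3 libraries, which gives 0.11 ± 0.33 and -0.11 ± 0.65 (SD, n = 3 libraries each).

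The direction of the group difference rested on single libraries. Without siRBM3 replicate 3 the median log2 fold change of the 60 genes was 0.10, with 43 genes higher and 17 lower, and without control replicate 5 it was 0.05, with 36 higher and 24 lower. Without siRBM3 replicate 5 it was -0.47, with 59 lower. Besides its low mitotic level, siRBM3 replicate 3 had the greatest depth and the largest share of mitochondrial counts. The median of the 60 genes was -0.17 when that library was thinned to the median total. It was also -0.17 when the mitochondrial genes were left out, and both fits were tried after seeing the data. These fits kept the scaling to library totals, and whether depth or mitochondrial share relates to the low level was not tested.

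**Figure D3:**
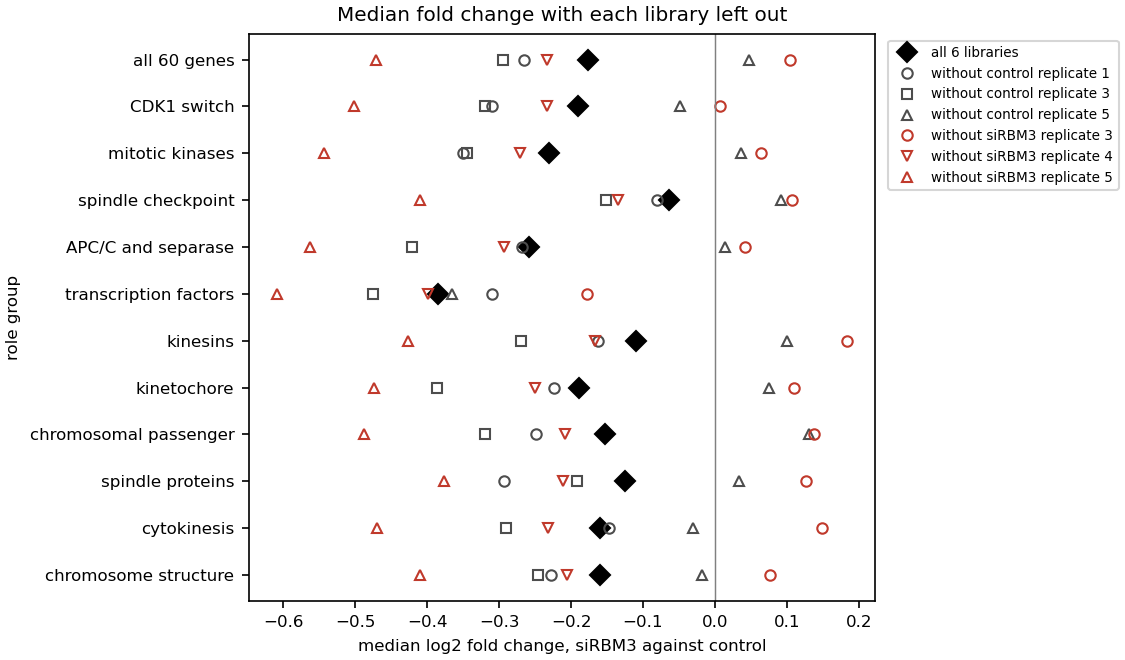
Median log2 fold change of siRBM3 against control (x axis) for all 60 mitotic genes and for each role group (y axis), from all 6 libraries (filled diamonds) and after removal of each library (open symbols). For all 60 genes the median lies at -0.18 and crosses 0 without control replicate 5 (0.05) or siRBM3 replicate 3 (0.10).

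In the CDK1 switch, 8 of 9 genes had a lower mean and WEE1 a higher one (median log2 fold change -0.19). CDK1, the kinase that drives entry into mitosis, stood at 59.98, 82.7 and 137 CPM in control and at 40.5, 68.5 and 80.8 CPM in siRBM3 cells. The 2 groups overlapped, since 2 siRBM3 libraries lay above the lowest control. Its log2 fold change of -0.56 (SE 0.34) was the lowest of the 60, with an adjusted p of 0.537 in the quasi-likelihood test of edgeR (Benjamini-Hochberg). CDC25B, a phosphatase that activates CDK1, had the highest level per kilobase of exon of all 60 genes (135 CPM per kb) and stood at 467, 457 and 765, then 349.9, 524 and 607 CPM. CCNB1, which encodes cyclin B1, came next in level per kilobase (98.6 CPM per kb) and had 216, 235 and 334, then 125, 238 and 291 CPM. In both genes a single siRBM3 library lay below the controls and the other 2 lay among them. CDC25A, a phosphatase with a role at the start of S phase too, was the lowest of the 60 per kilobase (1.54 CPM per kb), and its levels stayed between 4.92 and 7.99 CPM. The remaining cyclins CCNA2, CCNB2 and CCNF and the phosphatase CDC25C had log2 fold changes between -0.37 and -0.07.

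WEE1 stood at 50.9, 57.6 and 78.2 CPM in control and at 96.7, 81.3 and 110.6 CPM in siRBM3 cells. Every siRBM3 library was above every control library, including replicate 3, in which the other 59 genes were at their lowest. Of all genes tested, 9.99% were higher without overlap in this way. The means were 62.2 ± 14.2 and 96.2 ± 14.6 CPM (SD, n = 3), and the fitted log2 fold change was 0.63 (SE 0.18). The unadjusted p of the edgeR quasi-likelihood test was 0.00733 and the adjusted p was 0.214 after Benjamini-Hochberg adjustment over all genes, so WEE1 was not called, and DESeq2 gave an adjusted p of 0.0555. It was called by edgeR in the fit without a filter on low counts (1 of the 60, compared with 0.927% of all genes). WEE1 was also 1 of 4 called when the replicate number was a block (with CDK1, AURKA and CENPA, compared with 2.23% of all genes). That fit compares the groups within numbers 3 and 5 alone, and nothing in the labels says that the numbers pair the libraries. The exact two-sided permutation test gave p = 0.1, the smallest that 3 against 3 libraries allow. WEE1 lies at chr11:9595217-9615004 on the plus strand of GRCh37, and 4.49% of its exon bases are shared with other annotated genes.

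Among the mitotic kinases, all 4 had a lower mean (median log2 fold change -0.23). AURKA, which matures the centrosomes and activates PLK1, stood at 107, 96.8 and 197 CPM in control and at 44.7, 108 and 131 CPM in siRBM3 cells, with a log2 fold change of -0.51 (SE 0.42). PLK1, which acts at centrosomes, kinetochores and the midbody, stood at 159, 183 and 287, then 101, 201 and 258 CPM. Both genes repeated the order of the libraries, with siRBM3 replicates 4 and 5 among the controls. NEK2, which splits the centrosome pair, and PLK4, which duplicates the centriole, had log2 fold changes of -0.08 and -0.29.

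**Figure D4:**
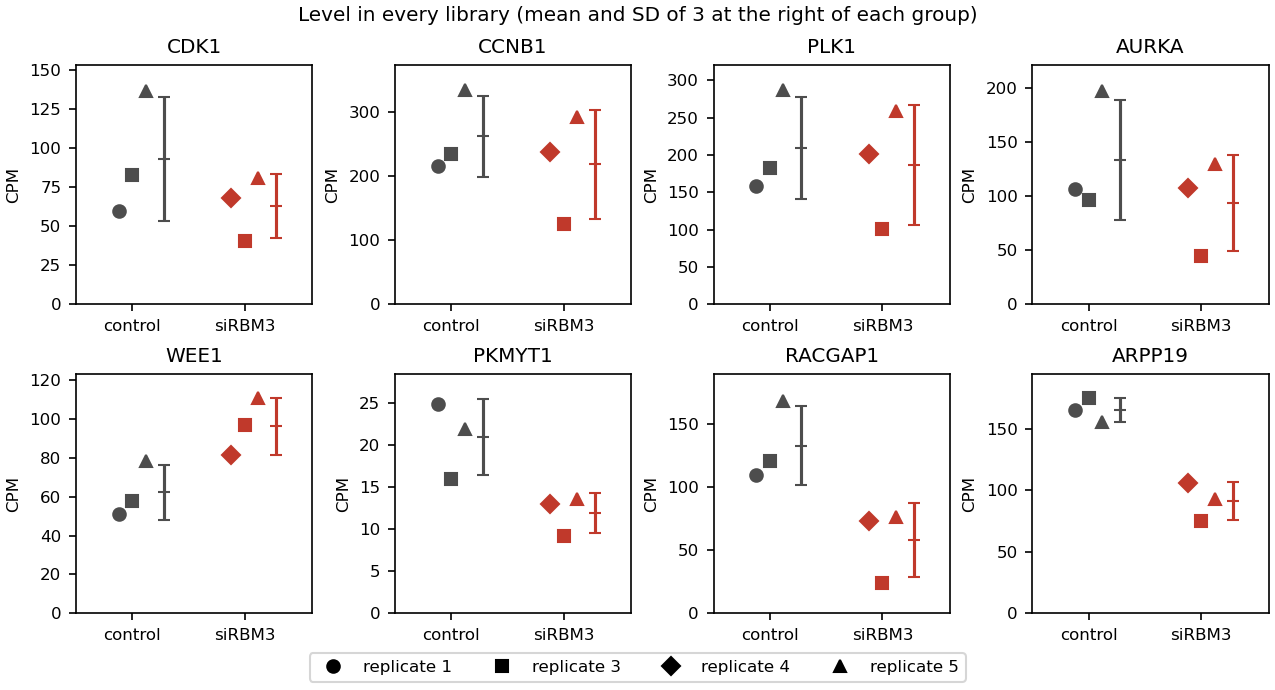
Level in CPM (y axis) of CDK1, CCNB1, PLK1, AURKA and WEE1, and of PKMYT1, RACGAP1 and ARPP19 from the wider mitotic machinery, in each library by group (x axis), with marker shapes for replicate numbers and the mean and SD of 3 libraries beside each group. The groups overlap for CDK1, CCNB1, PLK1 and AURKA and do not overlap for the other 4 genes, of which WEE1 alone is higher in siRBM3 cells. Those 4 were picked from these same values, and the groups do not overlap for 19.9% of all genes tested.

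The spindle checkpoint genes had the median closest to 0 of the 11 role groups (-0.06). TTK, the kinase that places the checkpoint on kinetochores, stood at 30.5, 36.7 and 61.7 CPM in control and at 17.97, 38.3 and 48.5 CPM in siRBM3 cells, and the kinases BUB1 and BUB1B, both highest in siRBM3 replicate 5, had log2 fold changes of -0.03 and -0.06. BUB3, which binds both BUB kinases and is also expressed outside mitosis, varied little, at 149.8, 152 and 187, then 136, 164 and 187 CPM. MAD2L1, which inhibits CDC20, was also flat, at 43.1, 56.6 and 61.9, then 41.6, 54.9 and 46.3 CPM. Even these flat genes were lowest in siRBM3 replicate 3.

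The role group of the anaphase-promoting complex and separase holds CDC20, UBE2C, PTTG1 and ESPL1, none of which is a subunit of the complex. All 4 means were lower (median -0.26). ESPL1, the protease that opens cohesin, had the second widest range, at 32.4, 24.1 and 48.3 CPM in control and 11.4, 30.7 and 47.9 CPM in siRBM3 cells. Its securin PTTG1 stood at 121, 95.5 and 129, then 55.7, 112 and 115 CPM, and CDC20, the activator that the checkpoint inhibits, at 174, 138 and 207, then 80.4, 160.0 and 212 CPM. The highest and the lowest CDC20 levels were thus both in siRBM3 cells. UBE2C, the conjugating enzyme of the complex, had a log2 fold change of -0.30.

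The transcription factors FOXM1 and MYBL2, which activate many of the other genes, departed from the order of the libraries. FOXM1 stood at 179, 142 and 171 CPM in control and at 79.7, 133 and 154 CPM in siRBM3 cells. Control replicate 1 was the highest, and 2 of the 3 siRBM3 libraries lay below every control. The log2 fold change was -0.42 (SE 0.22) and the unadjusted p 0.0954, the smallest of the 60 genes after WEE1, with an adjusted p of 0.471 in the quasi-likelihood test of edgeR (Benjamini-Hochberg). MYBL2 stood at 115, 90.3 and 104, then 59.9, 77.3 and 107 CPM, again with control replicate 1 highest and a log2 fold change of -0.34 (SE 0.20). The median of this pair stayed below 0 with each library left out, between -0.61 and -0.18. Of the 11 role groups it was the only one for which this held.

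Of the 9 kinesins, 7 had a lower mean (median -0.11). KIF2C, which depolymerises microtubules at centromeres, stood at 106, 91.4 and 169 CPM in control and at 43.6, 102 and 146 CPM in siRBM3 cells. KIF20A, a motor of the central spindle needed for cytokinesis, stood at 172, 132 and 181, then 70.0, 169.5 and 219 CPM, so its lowest and highest levels were both in siRBM3 cells. KIF11, which separates the spindle poles, had a log2 fold change of -0.12, KIF4A, KIF15, KIF18A and KIF20B lay between -0.24 and -0.06, and KIF23 and KIF14, both of which act at the midbody, had 0.01 and 0.05. The copies of KIF4A and PTTG1 that could take reads from them, KIF4B, PTTG2 and PTTG3P, were at or below 0.24 CPM in every library.

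Of the 8 kinetochore genes, 6 had a lower mean (median -0.19). NUF2, which with NDC80, SPC24 and SPC25 forms the complex that grips microtubules, stood at 67.8, 73.5 and 104 CPM in control and at 30.1, 71.8 and 84.1 CPM in siRBM3 cells. The log2 fold changes of the 4 subunits were -0.40, -0.32, -0.17 and -0.21, in that order. The centromeric histone CENPA had -0.32, the centromeric motor CENPE -0.01, CENPF 0.17 and KNL1, the scaffold that recruits the BUB proteins, 0.11.

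The chromosomal passenger complex corrects faulty attachments through AURKB, and its 4 genes all had a lower mean (median -0.15). AURKB stood at 42.9, 44.6 and 87.5 CPM in control and at 23.9, 50.2 and 72.4 CPM in siRBM3 cells. BIRC5, which encodes survivin, varied less, at 132, 136 and 149.7, then 89.7, 133 and 146 CPM. INCENP and CDCA8 both had a log2 fold change of -0.12.

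The spindle proteins had a median of -0.13. TPX2, which activates AURKA on spindle microtubules, stood at 338, 336 and 505 CPM in control and at 154, 329 and 409 CPM in siRBM3 cells, a log2 fold change of -0.40 (SE 0.34). ASPM, which holds the spindle poles together, went the other way, at 71.9, 56.3 and 90.1, then 39.8, 88.8 and 132 CPM, a log2 fold change of 0.25 (SE 0.39). Even so, ASPM was lowest in siRBM3 replicate 3. CKAP2, HMMR and DLGAP5 had log2 fold changes between -0.13 and -0.09. NUSAP1, which bundles spindle microtubules, had -0.32, but 86.8% of its exon bases are shared with other annotated genes, and nothing in the sources used here gives the strand setting of the counting.

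In cytokinesis, ANLN stood at 111, 82.5 and 134 CPM in control and at 44.4, 101 and 150.3 CPM in siRBM3 cells. ECT2, which activates the GTPase of the contractile ring, stood at 104, 108 and 144, then 58.9, 113 and 135 CPM. PRC1, which bundles the microtubules of the central spindle, stood at 178, 141 and 204, then 82.2, 172 and 215 CPM, with 61.9% of its exon bases shared with other genes. All 3 had log2 fold changes between -0.22 and -0.15, with the groups overlapping.

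The genes of chromosome structure had a median of -0.16. TOP2A, which untangles sister chromatids, stood at 302, 323 and 496 CPM in control and at 195, 361 and 460.4 CPM in siRBM3 cells. NCAPG stood at 71.0, 75.1 and 119, then 39.0, 70.4 and 92.0 CPM, a log2 fold change of -0.40 (SE 0.32), with 33.7% of its exon bases shared with other genes. The condensin ATPases SMC2 and SMC4 had -0.18 and -0.10, and the condensin subunit NCAPH had -0.28. MKI67, the proliferation antigen Ki-67, stood at 297, 243 and 363, then 193, 348 and 445 CPM, a log2 fold change of 0.13. Its mean was higher in siRBM3 cells although its lowest library was one of them.

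**Figure D5:**
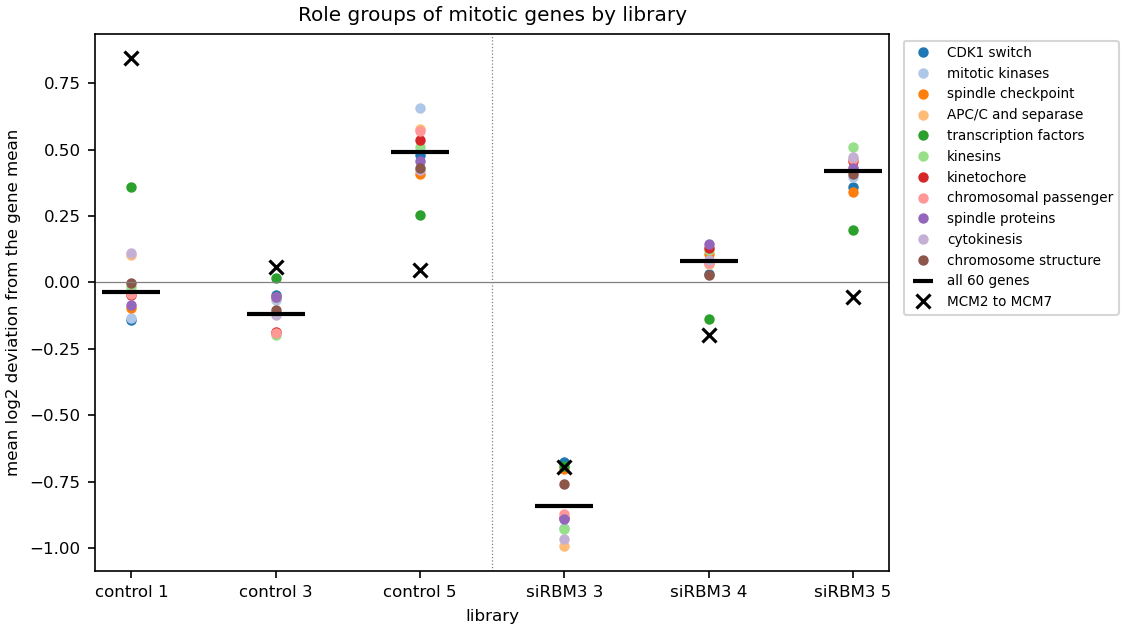
Mean deviation of each role group from its gene means (y axis, log2(CPM + 0.5) scale) in each library (x axis), with a bar for all 60 genes and crosses for MCM2 to MCM7. In siRBM3 replicate 3 the mean of all 60 genes is -0.84, and in control replicate 5 and siRBM3 replicate 5 it is 0.49 and 0.42, while MCM2 to MCM7 are highest in control replicate 1 (0.84).

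Of the 11 role groups, the transcription factors departed from the order of the libraries, and the other 10 were all highest in control replicate 5 or siRBM3 replicate 5. In siRBM3 replicate 3 all 11 were lowest, with mean deviations from -0.99 for CDC20, UBE2C, PTTG1 and ESPL1 to -0.68 for the CDK1 switch. The MCM2 to MCM7 genes, which encode the replicative helicase loaded before S phase, had another order, although each was also lowest in siRBM3 replicate 3. Their mean deviation was 0.84, 0.06 and 0.05 in the control and -0.70, -0.20 and -0.06 in the siRBM3 libraries. In this mean, control replicate 1 was highest and the siRBM3 libraries all lay below the controls, replicate 5 by little. Taken singly, MCM3, MCM4 and MCM5 kept that separation, whereas MCM2, MCM6 and MCM7 did not. Their median log2 fold change was -0.69, and the difference from the mitotic genes was not tested.

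The rest of the mitotic machinery was read from a list of 109 further genes, of which 103 were tested. Of these, 88 had a lower and 15 a higher mean (median log2 fold change -0.19). At an unadjusted p below 0.05, 15 were lower and 2 higher (6.58% and 6.56% of all genes tested). By the thresholds of the study, 0 were called by edgeR (0.0% of all genes) and 4 by DESeq2 (1.22%), and 3 had an adjusted p below 0.1 in edgeR (0.55% of all genes). Their median range over the libraries was 0.83 on the log2 scale, and 74 were lowest in siRBM3 replicate 3. The 2 groups of libraries did not overlap for 18 that were lower and 2 that were higher, beside the 9.93% and 9.99% of all genes given above.

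The 5 of these with the smallest p among the lower ones were ARPP19, ANAPC13, PDS5A, NCAPH2 and STAG1. They were picked by p from these same libraries, so a lack of overlap between their groups follows largely from that choice. ARPP19, which restrains the phosphatase that opposes CDK1, stood at 166, 175 and 156 CPM in control and at 74.8, 106 and 93.0 CPM in siRBM3 cells, with no overlap. Its log2 fold change was -0.86 (SE 0.13), with an adjusted p of 0.0822 in the quasi-likelihood test of edgeR (Benjamini-Hochberg). ANAPC13, a small subunit of the anaphase-promoting complex, stood at 40.4, 49.2 and 52.7, then 22.2, 30.6 and 22.4 CPM, a log2 fold change of -0.92. The groups of both genes stood apart. The cohesin regulator PDS5A stood at 137, 149 and 131, then 84.2, 96.9 and 107 CPM (log2 fold change -0.53). The condensin II subunit NCAPH2 stood at 27.6, 23.4 and 25.8, then 15.7, 15.2 and 18.9 CPM (-0.63). The cohesin subunit STAG1 stood at 51.4, 58.8 and 54.0, then 36.8, 37.1 and 42.4 CPM (-0.50). These 3 were also lower in every siRBM3 library than in any control. Its paralog STAG2 had a higher level in siRBM3 cells, at 151, 163 and 151, then 239.7, 216 and 222 CPM, with a log2 fold change of 0.54 and an adjusted p of 0.0851 by the same test. CIT, the citron kinase of the midbody, was the other higher gene, at 62.8, 36.3 and 64.0, then 57.0, 96.5 and 121 CPM, and there the groups overlapped.

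PKMYT1 and RACGAP1 lay outside the 5 and were chosen after their values were seen, as the partners of WEE1 and KIF23. PKMYT1, the other kinase that inhibits CDK1, stood at 25.0, 16.1 and 22.0 CPM in control and at 9.23, 13.0 and 13.7 CPM in siRBM3 cells. Its groups did not overlap, in the direction opposite to WEE1, with a log2 fold change of -0.82 (SE 0.21) and an adjusted p of 0.180 in the quasi-likelihood test of edgeR (Benjamini-Hochberg), and 31.9% of its exon bases are shared with other genes. RACGAP1, which with the motor KIF23 forms the centralspindlin complex of the midzone, stood at 109.6, 121 and 169, then 24.2, 73.5 and 76.6 CPM. Its log2 fold change was -1.20 (SE 0.41), with an adjusted p of 0.282 by the same test, whereas that of KIF23 was 0.01 (SE 0.35).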

How the data were processed

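RNA of 3 control and 3 siRBM3 samples of T24 cells was sequenced (stranded kit for polyadenylated RNA, single-end). The authors used BBDuk for trimming, STAR for alignment to hg19/GRCh37, Picard for the marking of duplicates and featureCounts for the reads of each gene. The deposited values are raw counts, without normalization. The sources used here do not give the annotation release, the strand setting or the treatment of marked duplicates. Groups and replicate numbers came from the labels.

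Of 63677 identifiers, 55665 were matched to a symbol and a GRCh37 position through GENCODE. Genes were kept by filterByExpr of edgeR 4.0.16 (minimum count 10, minimum total 15), which left 15099. The quasi-likelihood test was fitted to all of them with TMM factors, robust dispersions and Benjamini-Hochberg adjustment over all genes. The SE was the log2 fold change divided by the root of F. A call required a fold change of 1.5 and an adjusted p below 0.01, the thresholds of the study, where DESeq2 was the tool. The alternatives were DESeq2 1.42.0, limma 3.58.1 with voom, other scalings and filters, the replicate number as a block, and removal of each library (R 4.3.3). CPM used TMM-scaled totals, and deviations were taken on log2(CPM + 0.5). With 3 libraries against 3, an exact two-sided permutation test cannot go below p = 0.1. Totals of 23603992 to 45098612 counts gave at least 1085 counts per mitotic gene over the 6 libraries. Libraries of a group differed far beyond sampling noise (chi-square per degree of freedom 27.7 to 141), so none was a repeat deposit.

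The members, role groups and further list were chosen with earlier results of these data known. Values in every library were given for the gene of each role group with the smallest p, the widest range and the highest level per kilobase, for those whose groups did not overlap, and, for the further list, the 5 with the smallest p in each direction below 0.05. Other genes are given as context. On simulated data for this comparison, edgeR called 163 of 193 changed genes with 1 unchanged, DESeq2 147 of 200 with 5, and limma-voom 162 of 193 with 1. The simulation gave every gene the same dispersion and planted large changes, with no difference between libraries other than depth. Its counts therefore do not measure the power to call the mitotic genes in the real libraries.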

Additional observations from a re-analysis of the deposited data

How the results depend on the processing

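With removal of each library in turn, the median log2 fold change of the 60 genes ranged from -0.47 to 0.10. It ranged from -0.50 to 0.0065 for the CDK1 switch, -0.54 to 0.064 for the mitotic kinases, -0.41 to 0.11 for the spindle checkpoint, -0.56 to 0.041 for the anaphase-promoting complex and separase, -0.43 to 0.18 for the kinesins, -0.47 to 0.11 for the kinetochore, -0.49 to 0.14 for the chromosomal passenger complex, -0.38 to 0.13 for the spindle proteins, -0.47 to 0.15 for cytokinesis and -0.41 to 0.077 for chromosome structure. In at least 1 of these fits 45 of the 60 genes changed sign, and those among the genes that the rule named were CDC25B (-0.37 to 0.094), PLK1 (-0.47 to 0.13), BUB3 (-0.12 to 0.11), TTK (-0.62 to 0.052), CDC20 (-0.53 to 0.10), ESPL1 (-0.74 to 0.17), KIF2C (-0.75 to 0.024), KIF20A (-0.44 to 0.26), AURKB (-0.66 to 0.15), BIRC5 (-0.32 to 0.0035), ASPM (-0.18 to 0.60), ANLN (-0.59 to 0.20), ECT2 (-0.47 to 0.063), PRC1 (-0.46 to 0.15) and TOP2A (-0.43 to 0.14). The other genes that the rule named kept their sign in each of these fits. CDK1, AURKA, MAD2L1, PTTG1, FOXM1, MYBL2, NUF2, TPX2 and NCAPG stayed lower, and WEE1 stayed higher, from 0.50 to 0.83.

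Without the filter on low counts, 1 of the 60 genes (WEE1) and 7 of the other mitotic genes were called (0.927% of all genes), RBM3 was called at -2.13 and BUB3 was at 0.0018. DESeq2 called 4 of the other mitotic genes (1.22% of all genes) and RBM3 at -2.14. At an adjusted p below 0.1 with no fold limit, edgeR called 3 of the other mitotic genes (0.55% of all genes). The cause of these differences was not tested. The groups share the replicate numbers 3 and 5, and the deviations of same-numbered libraries correlated at 0.61 and 0.09 across genes. Between control and siRBM3 libraries of different numbers, the correlations ran from -0.42 to 0.28. Nothing in the labels says that a number marks a shared culture or day. Replicate number 1 occurs only in control and number 4 only in siRBM3. The replicate block therefore compares the groups within numbers 3 and 5 alone, and the libraries of numbers 1 and 4 do not inform its fold changes. With this block, 4 of the 60 (CDK1, WEE1, AURKA and CENPA) and 9 of the other mitotic genes were called (2.23% of all genes), and RBM3 was called at -2.57. The median of the 60 genes was -0.40, with 26 lower at an unadjusted p below 0.05 (13.5% of all genes). The least counted of the 60 genes had 1085 counts over the 6 libraries.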
